A study of Mus musculus with 6 samples.

Results

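The 40 genes described here are induced by type I interferon, and all 40 were found by symbol among the 33696 genes of the deposited count matrices of single cells from mouse liver. They were chosen by name, but this list and the gene lists below were made with earlier results of these data known. The cells fell into 9 classes: invariant natural killer T (iNKT), CD4 T, CD8 T, natural killer (NK), ILC1 (innate lymphoid cells resident in tissue), B, monocyte, conventional dendritic (cDC) and plasmacytoid dendritic (pDC) cells. Wild-type (WT) animals ate a 60% high-fat diet, alone (WT HFD) or with 0.25% of the bile acid hyodeoxycholic acid (WT HFD+HDCA), and the third group were Ja18-/- animals given the diet with HDCA (iNKT KO HFD+HDCA). Mice of all 3 groups thus ate the high-fat diet, for 12 weeks, and no library of a normal diet was analysed here. The Ja18 segment is missing from every cell of the knockout mice, so that the invariant receptor of iNKT cells cannot be made. Each group had 1 RNA library and 1 T cell receptor (TCR) library, and the number of mice, their age and their sex are not given in the sources used here. Differences are therefore between single libraries, no test between groups was possible, and every interval below covers counting error only.

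Type I interferons, which are interferon alpha and beta, bind a receptor made of Ifnar1 and Ifnar2 on almost every cell. The receptor's kinases activate transcription factors, among them Stat2, which joins Irf9 and binds a response element in the promoters of the induced genes. The products cut, trap or block viral RNA and viral entry, and some of them (Usp18, for example) damp the pathway. In the liver, monocytes, dendritic cells and lymphocytes all respond, and a low tonic signal keeps some of the genes on without infection.

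The response element holds GAAA, any 2 bases, GAAA, and this motif of 10 bases was searched on both strands (on the other strand it reads TTTC, any 2 bases, TTTC) in RefSeq promoters of the GRCm38.p6 build, from 250 bases before to 50 after the gene start. Of the 40 members, 30 had a promoter in the RefSeq table, and 17 of the 30 (56.7%) held the motif. The share over all genes of the table was 3.99% (1079 of 27025). Within the antiviral set, defined below, 8 of 13 promoters held the motif, and 9 of 17 did among the other members. A match is a run of letters, not a shown binding site. The 250 bases before the start are shown for 4 antiviral genes that hold the motif and are described below, 5′ to 3′ on the gene's strand, with the motif in capitals. Ifit1 lies at chr19:34640639-34640888 (plus strand), Ifit3 at chr19:34583279-34583528 (plus), Isg15 at chr4:156200819-156201068 (minus) and Rsad2 at chr12:26456453-26456702 (minus).
Ifit1: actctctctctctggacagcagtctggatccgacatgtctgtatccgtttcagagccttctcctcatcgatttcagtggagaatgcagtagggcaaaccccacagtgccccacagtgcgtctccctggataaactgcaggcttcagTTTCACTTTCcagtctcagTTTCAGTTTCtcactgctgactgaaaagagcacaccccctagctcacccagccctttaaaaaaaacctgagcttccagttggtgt
Ifit3: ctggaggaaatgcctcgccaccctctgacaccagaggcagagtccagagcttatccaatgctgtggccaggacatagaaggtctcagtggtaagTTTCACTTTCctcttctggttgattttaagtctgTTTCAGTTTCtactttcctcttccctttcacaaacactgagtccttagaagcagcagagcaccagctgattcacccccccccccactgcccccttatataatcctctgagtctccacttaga
Isg15: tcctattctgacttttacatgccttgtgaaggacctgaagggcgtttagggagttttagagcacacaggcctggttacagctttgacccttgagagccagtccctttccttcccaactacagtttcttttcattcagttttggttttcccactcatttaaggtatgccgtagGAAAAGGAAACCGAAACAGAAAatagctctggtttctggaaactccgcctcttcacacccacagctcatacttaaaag
Rsad2: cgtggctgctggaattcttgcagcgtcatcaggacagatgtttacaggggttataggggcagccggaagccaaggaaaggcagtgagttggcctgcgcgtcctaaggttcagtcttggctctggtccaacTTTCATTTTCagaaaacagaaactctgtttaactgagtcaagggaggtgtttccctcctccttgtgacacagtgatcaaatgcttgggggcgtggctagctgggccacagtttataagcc
Ifit1 and Ifit3 each held 2 separate copies, which began 104 and 85 bases before the start in Ifit1, and 156 and 122 bases before it in Ifit3. Isg15 held 3 overlapping copies, which began between 78 and 66 bases before the start, and Rsad2 held 1 copy at 120 bases. Ifit2, which is also described below, held none in this window.

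The libraries held 6479, 10228 and 7153 barcodes (first WT HFD, then WT HFD+HDCA, last iNKT KO HFD+HDCA), with medians of 5734, 5631 and 5200 unique molecular identifiers (UMIs) per barcode. Values of 3 libraries are given in that order throughout. After filters 6183, 9680 and 6838 cells were kept, and about 80% of them had a class (79.7% to 80.0%). Pairs of libraries shared 67 to 93 barcodes. The study design and extraction text name a sort for CD45, a marker of all white blood cells, while the treatment text and the title name CD4. The kept cells included 2063, 3296 and 2639 B cells, so that they were not a CD4 sort. An invariant TCR contig was present on 356, 495 and 1 barcodes, and the iNKT class was compared in WT mice only. Defining markers sat where the class names put them. Cd79a was at 4256, 4446 and 4372 counts per 1000000 UMIs of the class (CPM) in B cells, Lyz2 at 21240, 23063 and 19441 CPM in monocytes, and Eomes at 349, 312 and 258 CPM in NK cells against 22, 18 and 7 CPM in ILC1. Names of clusters mean similarity of markers.

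Levels of the members differed far more between classes than between libraries. The plot of antiviral levels by class shows this for an antiviral set of 16 members: Ifit1, Ifit2, Ifit3, Ifit3b, Ifit1bl1, Isg15, Usp18, Oas1a, Oas2, Oas3, Oasl1, Oasl2, Rsad2, Cmpk2, Mx1 and Ifi44. Their summed level was highest in monocytes, at 668, 811 and 569 CPM. iNKT cells followed with 387 and 443 CPM in the WT libraries. CD4 T cells had 289, 266 and 228 CPM, CD8 T cells 268, 284 and 189, cDC 250, 306 and 211, and pDC 197, 300 and 188. ILC1 had 153, 186 and 136 CPM, B cells 105, 98.4 and 102, and NK cells 91.1, 115 and 74.5. The ranges over libraries of CD4 T, CD8 T, cDC and pDC overlapped, as did those of B and NK cells, whereas no library of another class reached the lowest monocyte library. A UMI stands for 1 captured transcript whatever its length. Genes can still differ in how well their reads are captured and assigned, so levels of different genes are set side by side only roughly.

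**Figure D1:**
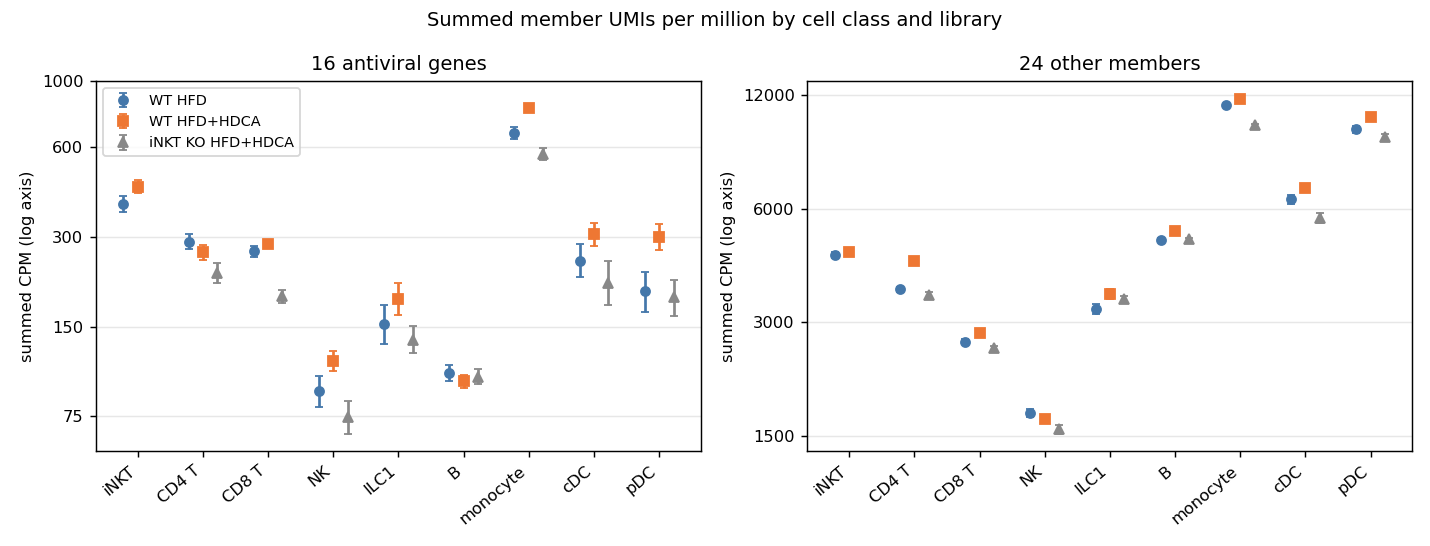
Summed level (CPM, log axis) of the 16 antiviral members (left) and of the 24 other members (right) in each cell class, with 1 point per library and bars for exact Poisson 95% intervals. In the left panel monocytes lie between 569 and 811 CPM, above every other class, and B and NK cells lie lowest.

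The other 24 members gave a different order, because a few of them are on in most cells of a lineage. Their summed level was 9969 to 11711 CPM in monocytes and 9301 to 10494 CPM in pDC, and only 1560 to 1725 CPM in NK cells. B cells, at 4971 to 5245 CPM, stood above CD8 T cells, at 2562 to 2809 CPM, the opposite of their order in the antiviral set. Ly6e, a membrane protein known to hinder the fusion of some viruses, was the member of highest level in all 6 lymphocyte classes. Its middle value over libraries was 3306 CPM in B cells, 2148 in ILC1, 1319 in CD4 T cells, 962 in CD8 T cells and 636 in NK cells. Ifitm3, which blocks entry of viruses from endosomes, led in monocytes (4137, 4332 and 3703 CPM) and in cDC (2210, 2188 and 1992 CPM). Bst2, or tetherin, which holds budding virus at the cell surface and is a known pDC marker in mice, led in pDC with 3965, 4493 and 3643 CPM.

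Below these, the members of highest level varied with the lineage. Samhd1, which lowers the pool of nucleotides, was at 958, 892 and 919 CPM in monocytes and at 461, 486 and 483 CPM in B cells. Ifi27l2a, a small membrane protein, was at 1564, 1629 and 1195 CPM in monocytes and at 683, 931 and 538 CPM in CD4 T cells, against 3.16 to 5.49 CPM in NK cells and 5.14 to 10.3 CPM in ILC1. NK cells and ILC1 were thus near 0 for a gene that was among the highest members in other lymphocytes. Ifi203, from a family of DNA sensors, was among the 3 highest members in ILC1, with a middle value of 280 CPM, and in NK cells, with 168 CPM. In B cells, where it was not among them, it had 272 CPM. Ifi204 from the same gene family was at 157, 149 and 130 CPM in monocytes but at 0.652, 0.246 and 0.695 CPM in CD8 T cells. Reads of Ifi203 and Ifi204, of Ifit3 and Ifit3b, and of Oas1a and its copy Oas1g can be hard to tell apart, and the values of these genes are uncertain to that extent. Slfn1, a regulator of T cell growth, had a middle value of 218 CPM in CD4 and 136 CPM in CD8 T cells, against 3 CPM in B cells. Irf7, the factor that amplifies interferon production, was at 331, 336 and 313 CPM in pDC.

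The first comparison asks what HDCA added to the high-fat diet went with, and sets WT HFD+HDCA over WT HFD. The antiviral set was higher with HDCA in 7 of 9 classes. The ratio was 1.52 (95% interval 1.27 to 1.84) in pDC, 1.26 (1.10 to 1.46) in NK cells, 1.22 (1.05 to 1.43) in cDC, 1.22 (1.001 to 1.48) in ILC1 and 1.21 (1.15 to 1.28) in monocytes. iNKT cells had 1.14 (1.06 to 1.24) and CD8 T cells 1.06 (1.002 to 1.12). The CD8 T value turned to 0.986 when doublets were kept. CD4 T cells, at 0.921 (0.847 to 1.001), and B cells, at 0.937 (0.864 to 1.02), lay on the other side of 1. In B and CD4 T cells the interval held 1, and in CD8 T cells and ILC1 its lower end lay at 1 to 2 decimals.

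Single members were counted where they had at least 50 UMIs in both libraries together and differed at least 1.5-fold, and the share of all genes doing so is given beside each count. In monocytes 4 of 39 measured members were that much higher (3.07% of all measured genes) and 0 lower (2.4%). iNKT cells had 3 of 35 higher (2.7%) and 1 lower (1.92%), and CD8 T cells 1 of 37 higher (2.16%) and 0 lower (2.78%). In CD4 T cells 0 of 36 were higher (4.58%) and 0 lower (2.22%). B cells had 0 of 35 higher (1.83%) and 1 lower (1.31%), NK cells 1 of 23 higher (1.81%) and 0 lower (2.14%), and ILC1 2 of 18 higher (3.19%) and 1 lower (2.98%). Among dendritic cells, 5 of 26 members were higher (5.17%) and 1 lower (4.17%) in cDC, and 5 of 22 higher (4.08%) and 1 lower (2.98%) in pDC. The members' counts in CD4 T, CD8 T, B and NK cells were 1 or 0 and near the share of all genes. With few members measured, counts in ILC1 and dendritic cells rest on 18 to 26 genes. Beside these counts, the median log2 ratio of the members was 0.09 in iNKT cells, 0.08 in monocytes, 0.20 in cDC and 0.17 in pDC, where that of all genes was 0.02, -0.01, -0.01 and 0.00.

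In monocytes the genes past 1.5-fold with HDCA were IFIT genes, whose products bind foreign RNA, and Rsad2, or viperin, which makes a chain-terminating nucleotide. Ifit2 was at 14.9, 29.2 and 19.02 CPM over the 3 libraries, with a ratio of 1.96 for the WT pair. Rsad2 was at 24.5, 42.2 and 32.8 CPM (ratio 1.72). Ifit3 was at 39.5, 60.4 and 41.4 CPM and its near-identical copy Ifit3b at 12.6, 19.3 and 5.52 CPM, both with a ratio of 1.53. Their sum was 52.1, 79.8 and 46.9 CPM, so that WT HFD+HDCA stood above both other libraries. Ifit1, at 25.7, 23.3 and 23.3 CPM, did not share this order. By role, the IFIT group was 1.34 times as high in WT HFD+HDCA (147 against 109 CPM), the ISG15 group of Isg15, Usp18 and Herc6 1.20 times, and the OAS and RNA decay group 1.13 times, with 6 of 6 genes above 1. The membrane proteins, which hold most of the UMIs, differed by 1.06 times.

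In iNKT cells the members apart between the WT libraries were Dhx58, a sensor of viral RNA, Cmpk2, a nucleotide kinase of mitochondria, Isg20, an RNA exonuclease, and Ifitm3. Dhx58 stood at 6.83 CPM without HDCA and 13.5 CPM with it (ratio 1.98), from 19 and 49 UMIs. Cmpk2 was at 6.11 and 11.9 CPM (1.94), and Isg20 at 19.4 and 36.1 CPM (1.86). Ifitm3 went the other way, with 128 CPM without HDCA and 80.5 CPM with it (0.63). The member with most UMIs, Ly6e, was at 2338 and 2346 CPM.

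Among the other classes, pDC had Isg15, a small protein joined to others like ubiquitin, at 39.1, 86.3 and 56.7 CPM, with 37.6% of the UMIs of WT HFD+HDCA in 1 cell. Mx1, a GTPase known from resistance to influenza viruses, was at 20.2, 42.0 and 11.7 CPM in pDC, and Phf11b at 49.8, 94.2 and 68.4 CPM. Oasl2, a relative of the OAS enzymes, was at 17.8, 30.9 and 22.5 CPM. Ifitm3 in pDC, at 110, 32.5 and 38.7 CPM, cannot be read as a level of pDC, because 1 cell held 74.2% of its UMIs in WT HFD. In cDC the 4 highest ratios with HDCA were those of Oasl2 (23.8, 45.5 and 25.6 CPM), Rtp4, a chaperone that also restrains viral replication (25.8, 42.0 and 21.1), Mx1 (26.8, 42.6 and 34.6) and Stat2 (38.2, 57.6 and 31.6). Dhx58 was lower with HDCA, at 43.4, 23.0 and 27.1 CPM. These cDC values rest on 61, 125 and 47 cells. ILC1 had Irf9 at 34.2, 57.0 and 47.7 CPM, Xaf1, which promotes cell death, at 41.1, 62.9 and 44.3, and Stat2 at 31.7, 20.5 and 23.7. Ifit2 in NK cells was at 6.46, 11.2 and 7.89 CPM, Ifit1 in CD8 T cells at 14.3, 22.8 and 13.8, and Slfn5, which can repress transcription, in B cells at 34.3, 22.7 and 19.95.

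The second comparison asks what the knockout went with among mice that were all given the diet with HDCA. No knockout library without HDCA was analysed, so what HDCA went with in the absence of iNKT cells cannot be read from it. The comparison sets iNKT KO HFD+HDCA over WT HFD+HDCA, which is the upper library of the first comparison as well. Because both comparisons share that library, a high value there makes one ratio rise and the other drop, and no relation between them was computed. The antiviral set was lower in the knockout library in 7 of 8 classes. Ratios were 0.627 (0.527 to 0.744) in pDC, 0.648 (0.556 to 0.753) in NK cells, 0.667 (0.629 to 0.708) in CD8 T cells, 0.689 (0.568 to 0.832) in cDC and 0.702 (0.664 to 0.741) in monocytes. ILC1 had 0.728 (0.619 to 0.857) and CD4 T cells 0.855 (0.774 to 0.945). B cells, the largest class, had 1.03 (0.957 to 1.12), which turned to 0.937 without the top 1% of cells and to 0.900 when members took part in the clustering.

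Counts of single members followed. CD8 T cells had 8 of 37 measured members at least 1.5-fold lower in the knockout library (2.75% of all measured genes) and 0 higher (2.32%). Monocytes had 7 of 39 lower (3.04%) and 0 higher (3.5%), and cDC 13 of 26 lower (6.45%) and 0 higher (5.04%). In pDC 6 of 23 were lower (3.8%) and 1 higher (3.15%), and in CD4 T cells 4 of 35 were lower (3.78%) and 0 higher (3.06%). NK cells had 2 of 23 lower (3.28%) and 0 higher (2.69%), ILC1 2 of 20 lower (3.92%) and 0 higher (3.97%), and B cells 1 of 36 lower (1.91%) and 1 higher (2.25%). Without the fold limit, 37 of 39 measured members lay below 1 in monocytes, 32 of 37 in CD8 T cells, 28 of 35 in CD4 T cells and 25 of 26 in cDC. The median log2 ratio of the members was -0.39 in monocytes, -0.25 in CD8 T cells, -0.23 in CD4 T cells and -0.59 in cDC, where that of all genes was 0.03, -0.03, -0.02 and -0.02. In B cells it was -0.01 against 0.03.

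**Figure D2:**
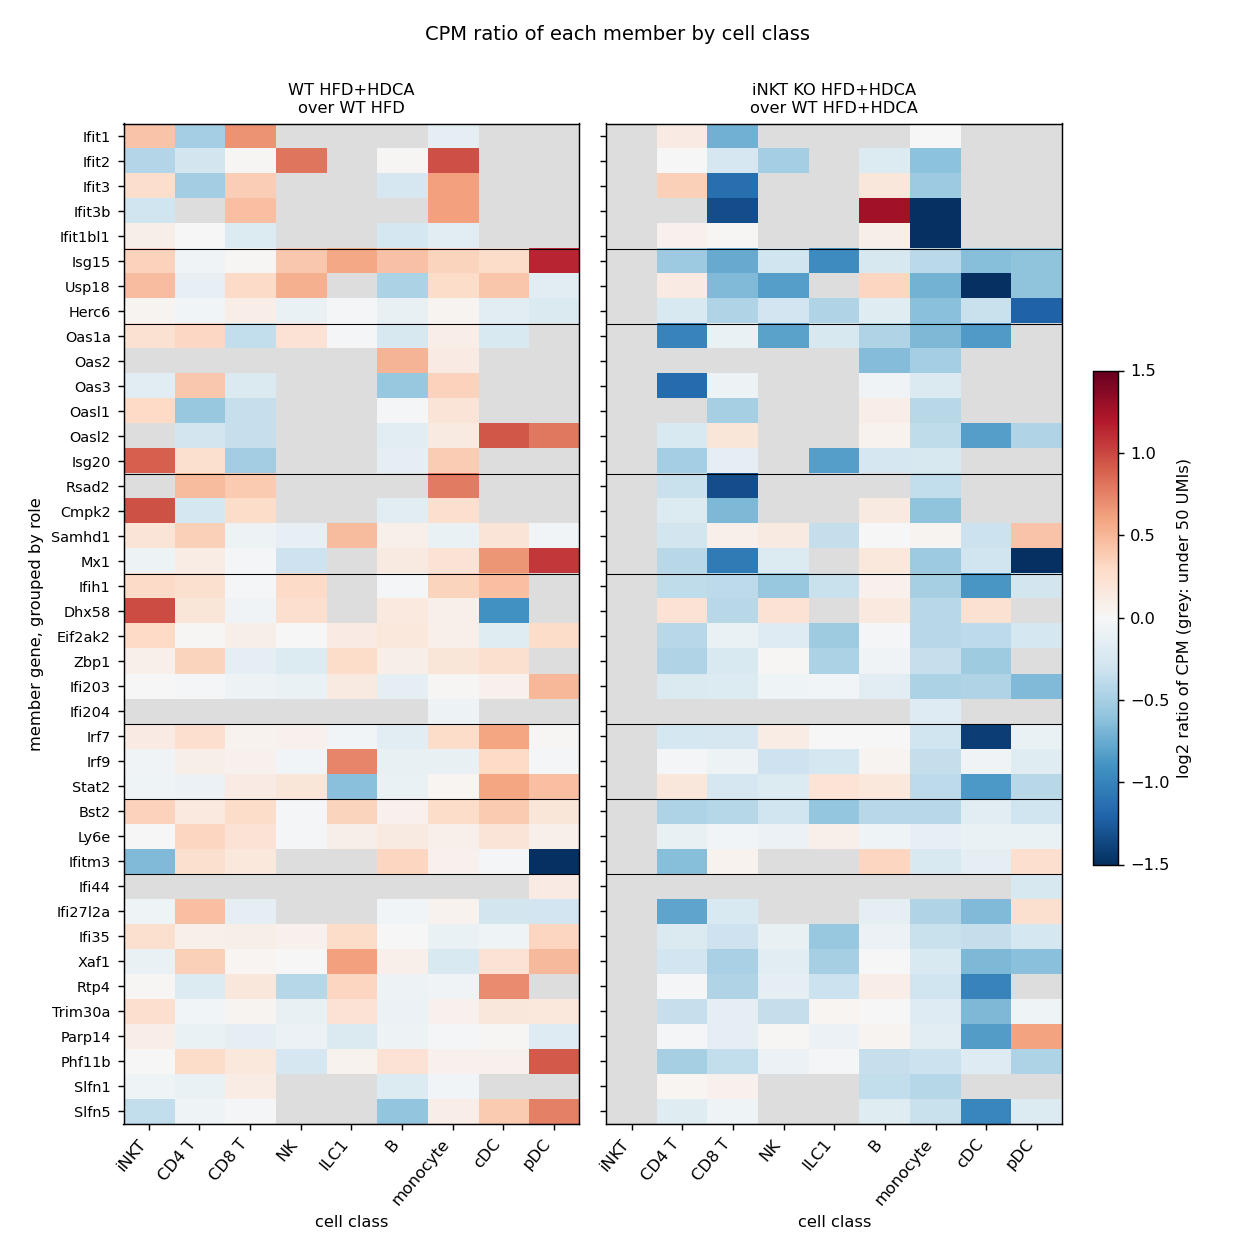
Log2 ratio of CPM between 2 libraries (colour, red for higher and blue for lower, full colour at 1.5) for each of the 40 members (vertical, grouped by role) in each cell class (horizontal), for WT HFD+HDCA over WT HFD (left) and iNKT KO HFD+HDCA over WT HFD+HDCA (right). Grey marks members under 50 UMIs and the iNKT column of the knockout comparison, where 37 of 39 monocyte values and 25 of 26 cDC values are below 0.

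In CD8 T cells the 4 lowest ratios in the knockout library were those of Ifit3b, Rsad2, Ifit3 and Mx1. Ifit3 was at 27.5, 35.4 and 16.2 CPM, a ratio of 0.46 for the knockout pair from 140 and 432 UMIs. Ifit3b was at 5.34, 7.30 and 2.89 CPM (0.40), and the sum of the copies at 32.9, 42.7 and 19.1 CPM. Rsad2 was at 5.74, 7.54 and 3.01 CPM (0.40) and Mx1 at 15.8, 15.5 and 7.41 CPM (0.48). In these genes the knockout library was the lowest of the 3, below WT HFD too. The same order held for Isg15 at 67.9, 68.9 and 40.8 CPM (0.59) and for Usp18, the protease that removes Isg15 and blocks the receptor, at 24.9, 30.5 and 19.3 CPM (0.63). The remaining members past 1.5-fold were Ifit1 and Cmpk2. Ifit1bl1, at 31.9, 27.8 and 28.1 CPM, and the OAS group, at a ratio of 0.91 (0.80 to 1.03), did not show it. Ly6e, at 849, 991 and 962 CPM, and Samhd1, at 261, 247 and 260 CPM, were also close between the HDCA libraries. All 8 CD8 members past 1.5-fold thus belonged to the antiviral set, and 0 of the 23 other measured members passed. The set was chosen with earlier results of these data known, so this split can in part reflect that choice.

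Monocytes differed across more of the roles. The IFIT group had a ratio of 0.63 (0.55 to 0.72), the ISG15 group 0.71 (0.65 to 0.78), the OAS and RNA decay group 0.73 (0.67 to 0.79), and the sensors 0.77 (0.73 to 0.82), with 6 of 6 sensors below 1. Transcription factors had 0.80 (0.74 to 0.86), membrane proteins 0.87 (0.86 to 0.89) and the other induced genes 0.76 (0.74 to 0.79), with 9 of 9 below 1. Oas1a, which makes the signal that turns on RNase L, was at 120, 129 and 81.3 CPM (0.63 for the knockout pair). Usp18 was at 37.9, 46.0 and 28.2 CPM (0.61). Ifi27l2a was at 1564, 1629 and 1195 CPM, and Ifitm3, the most abundant member, at 4137, 4332 and 3703 CPM. In these 4 genes the knockout library was the lowest of the 3. Ifit1bl1 had the lowest ratio (16.5, 14.6 and 3.37 CPM, from 43, 81 and 11 UMIs), but 1 cell held 43.2% of the UMIs of WT HFD+HDCA. Ifit3b, at 12.6, 19.3 and 5.52 CPM, had 0.29. The exceptions were Samhd1, at 958, 892 and 919 CPM, and Ifit1, at 25.7, 23.3 and 23.3 CPM.

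CD4 T cells had Oas3 at 12.9, 17.1 and 7.69 CPM (ratio 0.45), Oas1a at 23.7, 29.4 and 14.7 CPM (0.50), and Ifi27l2a at 683, 931 and 538 CPM (0.58, interval 0.54 to 0.61). The IFIT group, with a ratio of 1.10 (0.93 to 1.30), did not share this direction. Ifitm3 was at 70.5, 83.2 and 53.5 CPM in CD4 T cells, with 29.4% of the UMIs of WT HFD+HDCA in 1 cell. NK cells had Usp18 at 10.0, 14.5 and 8.21 CPM and Oas1a at 13.2, 15.4 and 8.84 CPM, from 26 to 85 UMIs. ILC1 had Isg15 at 47.9, 71.6 and 37.3 CPM and Isg20 at 8.56, 19.7 and 11.1 CPM. cDC had Usp18 at 39.2, 52.4 and 16.6 CPM, Irf7 at 115, 172 and 64.7 CPM, Rtp4 at 25.8, 42.0 and 21.1 CPM and Slfn5 at 106, 139 and 70.7 CPM. The ISG15 group (0.57), the transcription factors (0.58) and the other induced genes (0.66, with 6 of 8 past 1.5-fold) were lowest there. In pDC, Mx1 was at 20.2, 42.0 and 11.7 CPM (0.28), Herc6, the ligase that attaches Isg15, at 53.4, 45.9 and 19.8 CPM (0.43), Ifi203 at 145, 204 and 130 CPM, and Xaf1 at 24.9, 34.8 and 22.5 CPM. Parp14, which marks proteins with ADP-ribose, was higher in the knockout library (37.95, 33.2 and 50.4 CPM). B cells had Oas2 at 2.34, 3.33 and 2.12 CPM and Ifit3b at 1.17, 1.70 and 4.06 CPM. Their Ifit3, at 8.41, 7.06 and 7.94 CPM, and Isg15, at 7.56, 10.3 and 8.65 CPM, were close.

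To see how the antiviral transcripts are spread over single cells, each cell was thinned to 2000 UMIs, and the number of the 16 antiviral members with a UMI was counted. Shallower cells were left out, at most 125 in any class and library. Most cells had none: 77.1% of CD8 T cells of the knockout library, 72.4% of those of WT HFD+HDCA, 71.7% of those of WT HFD. In monocytes the share with none was 55.5%, 55.0% and 65.5%. A cell with 3 or more is called a strong cell here. This is a cut through a continuous score, not a cell type: 43, 49 and 33 CD8 T cells had 2 members and 10, 21 and 5 had exactly 3. When the members took part in the clustering, 2 small clusters led by interferon-induced genes came out. The larger held 96 cells, with 39 CD8 T cells and 47 without a class, and was 0.323%, 0.548% and 0.336% of kept cells. The smaller held 51 cells, 50 of them B cells (0.226%, 0.176% and 0.292%). Both were made with the members, so their leading genes are no separate support.

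Antiviral transcripts came together in the same cells. CD8 T cells with a UMI of Ifit1 (85 cells) held on average 2.87 of the other 15 antiviral members, against 0.319 in the 3211 without. For monocytes the means were 5.90 (21 cells) and 0.737 (1141 cells). Over all kept cells, strong cells made up 2.10% (126 of 5998), 2.51% (236 of 9392) and 1.59% (104 of 6539) of the 3 libraries, and 22.5% to 26.2% of them had no class. In monocytes the share was 7.55% (20 of 265), 8.51% (48 of 564) and 6.61% (22 of 333). iNKT cells had 3.36% (11 of 327) and 5.13% (23 of 448) in the WT libraries, CD4 T cells 3.02% (17 of 563), 1.65% (10 of 605) and 2.69% (11 of 409). B cells had 0.699% (14 of 2004), 0.772% (25 of 3239) and 1.07% (27 of 2514). In NK cells there were 2 of 531, 5 of 918 and 0 of 559, where 0 allows a share of up to 0.537%. cDC had 3 of 61, 5 of 119 and 0 of 46 (up to 6.52%), pDC 2 of 71, 4 of 115 and 2 of 98, and ILC1 1 of 141, 4 of 186 and 3 of 328, too few to compare.

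**Figure D3:**
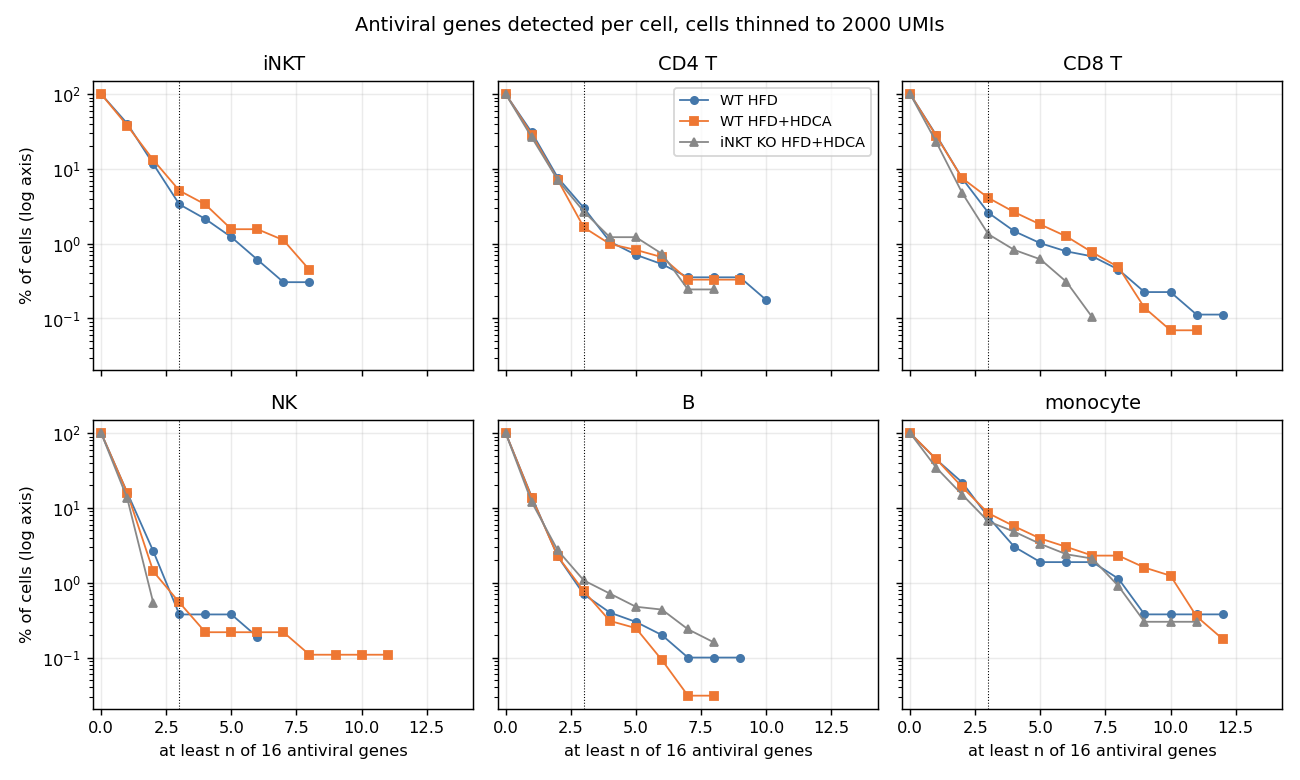
Share of cells (percent, log axis) with at least a given number of the 16 antiviral members (horizontal axis) after thinning to 2000 UMIs, by library, for the classes shown. In CD8 T cells the knockout curve lies below the others at 3 members, where the shares are 2.59%, 4.10% and 1.34%.

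The share of each gene's UMIs in strong cells is in part set by the cut for the 16 genes that define it, and is given as a description. In monocytes, where strong cells were 7.75% of cells over the 3 libraries, they held 92.7% of the thinned UMIs of Ifit1, 90.3% of Ifit3, 87.5% of Ifit2, 80.3% of Rsad2 and 60.1% of Isg15. Of genes not used for the cut, they held 9.6% of the UMIs of Ly6e, 11.5% of Ifitm3 and 11.3% of Samhd1. Ifitm3 was present in 97.3% of thinned monocytes and Ly6e in 99.2% of B cells. By contrast Ifitm3 was present in 0.9% of B and 0.4% of NK cells, counted like all these shares at 2000 UMIs per cell. Shares near these are not by themselves read as expression. Isg15 had a UMI in 1.5% of B cells, where it came with other antiviral members. The 116 B cells with Isg15 held on average 0.828 of the other 15, against 0.153 in the 7641 without. Strong CD8 T cells (2.88% of the class) held 80% of the UMIs of Rsad2, 69.3% of Ifit1, 66.1% of Ifit3 and 43.8% of Isg15, but 16.3% of Ifit1bl1 and 18.5% of Ifit2. Ifit1bl1 and Ifit2 were thus spread over ordinary CD8 T cells.

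The 24 members outside the antiviral set were not used to choose strong cells. Among CD8 T cells, all 23 with at least 20 thinned UMIs had a higher level in strong cells than in the others. The same held for 24 of 24 in monocytes, 23 of 23 in B and CD4 T cells, 22 of 22 in iNKT cells and 17 of 17 in ILC1. It held for 16 of 18 in NK cells, 12 of 14 in cDC and 9 of 13 in pDC. In ILC1, NK cells, cDC and pDC these counts rest on at most 5 strong cells per library, so that single cells can set many genes at once. Strong cells are also deeper before thinning, with medians of 7186, 7722 and 5636 UMIs against 5741, 5581 and 5269 in all cells at depth. The part of depth and of cell state in this was not tested.

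CD8 T cells of the knockout library had fewer strong cells than those of WT HFD+HDCA. Strong cells were 2.59% (23 of 887, interval 1.65% to 3.87%) in WT HFD, 4.10% (59 of 1439, 3.14% to 5.26%) in WT HFD+HDCA and 1.34% (13 of 970, 0.715% to 2.28%) in the knockout library. The ratio of the shares for the knockout pair was 0.327 (0.164 to 0.603). A strong CD8 T cell held 7.57, 7.61 and 7.08 antiviral UMIs, and any other CD8 T cell 0.336, 0.300 and 0.271. Strong cells contributed 94.8 antiviral UMIs per 1000 cells in the knockout library against 312 in WT HFD+HDCA, and the other cells 267 against 288. The cut uses the same 16 genes as this split, so that any lower level also moves cells out of the strong part, and the split does not by itself tell few cells from many. The share of CD8 T cells with any antiviral UMI was 22.9% in the knockout library, against 27.6% with HDCA in WT mice. Isg15 gives an example: it had a UMI in 9.31% of the CD8 T cells of WT mice given HDCA and in 4.85% of those of the knockout library, at 1.54 and 1.43 UMIs per cell that had any. Without thinning, the shares of strong cells were 14.8%, 13.3% and 11.7%, the same direction for the knockout pair and the opposite for the WT pair. Without the 1% of cells of each library with the highest antiviral share of their UMIs, the ratio of unthinned levels was 0.666, against 0.667 with them. Strong cells were 4.10% of WT HFD+HDCA, so most of them stay in under this setting, and it does not tell few cells from many.

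In monocytes both the strong and the other part were lower in the knockout library. The share of strong cells in the knockout library was 0.776 times that in WT HFD+HDCA, with an interval (0.446 to 1.31) that holds 1. Strong monocytes held 7.30, 9.23 and 8.82 antiviral UMIs and the others 0.661, 0.576 and 0.418. Strong cells contributed 583 antiviral UMIs per 1000 cells in the knockout library against 785 in WT HFD+HDCA, and the other cells 390.4 against 527. The ratio was 0.74 in the other cells as in all cells. Monocytes with any antiviral UMI were 45.0% in the WT library given HDCA and 34.5% in the knockout library. For Oas1a, 19.5% of monocytes of WT mice given HDCA and 12.6% of those of the knockout had a UMI, and strong cells held 25.5% and 26.1% of its UMIs.

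**Figure D4:**
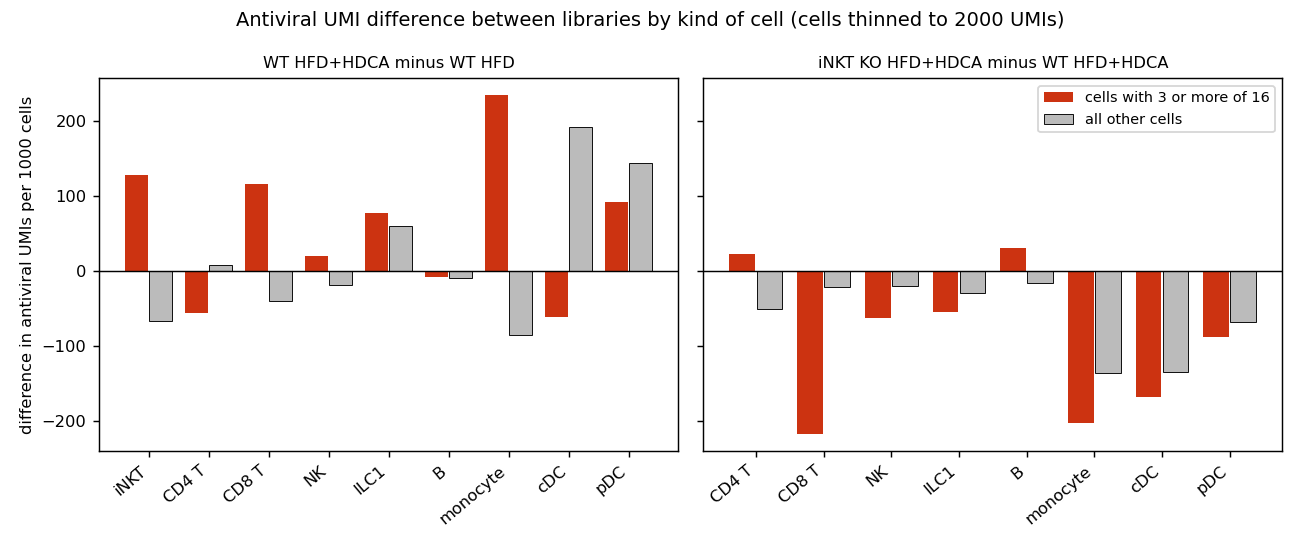
Difference between 2 libraries in antiviral UMIs per 1000 thinned cells (vertical axis), as bars for cells with 3 or more antiviral members (red) and for all other cells (grey), by class and comparison. For the knockout pair, cells with 3 or more differ by -217 in CD8 T cells and -203 in monocytes, and the other cells by -20.7 and -136.

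The members that the cut did not use were compared in the same way. In monocytes without any antiviral UMI, the 24 other members summed to 15.7 UMIs per cell in the knockout library and 18.6 in WT HFD+HDCA, a ratio of 0.841 (0.806 to 0.878). With 1 or 2 antiviral members the ratio was 0.862 (0.817 to 0.908) and in strong monocytes 0.920 (0.847 to 0.999). The quartiles of that sum over all monocytes were 15, 20 and 28 in WT HFD, 15, 21 and 27 in WT HFD+HDCA, and 13, 17 and 22 in the knockout library, so that each quartile lay lower. Most of the sum comes from Ifitm3, Ly6e and Ifi27l2a. The monocyte clusters, described below, differed in share between libraries. Over the 3 libraries the median was 25, 24 and 19 in the cluster led by Lyz2, and 15, 16 and 14 in that led by Ear2. In CD8 T cells the ratio was 1.05 (0.907 to 1.20) in strong cells, 1.005 (0.936 to 1.08) with 1 or 2 antiviral members and 0.957 (0.917 to 0.999) with none. CD4 T cells with none had 0.857 (0.810 to 0.907), but their clusters, described below, changed in share: the mean was 5.81 and 5.57 UMIs in the cluster led by Igfbp4 (first WT HFD+HDCA, then knockout) and 9.08 and 7.86 in that led by Foxp3. NK cells with none had 0.990 (0.927 to 1.06), B cells 0.955 (0.938 to 0.972) and pDC 0.873 (0.813 to 0.938).

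**Figure D5:**
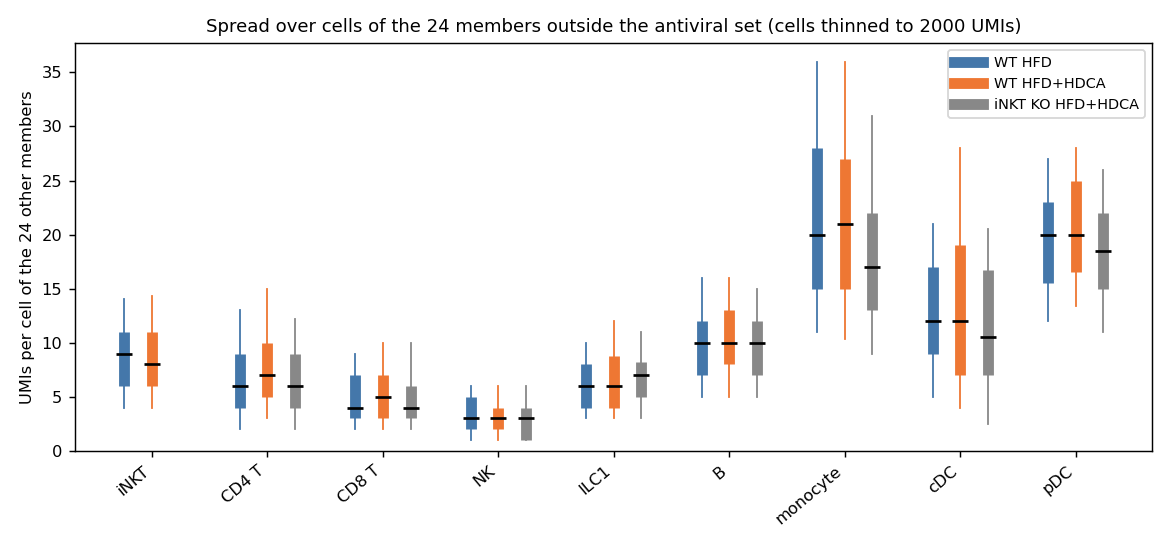
Distribution over cells of the summed UMIs of the 24 members outside the antiviral set (thinned to 2000 UMIs per cell), with the median, the quartiles and the 10th and 90th percentiles for each class and library. The monocyte medians are 20 (WT HFD), 21 (WT HFD+HDCA) and 17 (knockout).

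With HDCA in WT mice, the part held by strong cells was higher and that of the other cells lower in monocytes, CD8 T cells and iNKT cells, a split to which the same limit applies. In monocytes strong cells contributed 551 antiviral UMIs per 1000 cells without HDCA and 785 with it, and the others 611 and 527. CD8 T cells had 196 and 312 from strong cells and 327 and 288 from the others, and in iNKT cells strong cells 287 and 415 and the others 517 and 451. The ratios of the shares of strong cells were 1.13 (0.657 to 2.01) in monocytes, 1.58 (0.962 to 2.68) in CD8 T cells and 1.53 (0.715 to 3.47) in iNKT cells, and all 3 intervals hold 1. In monocytes the ratio turned to 0.867 with a limit of 2 genes, to 0.794 at 3000 UMIs and to 0.939 with doublets kept. In pDC both parts were higher with HDCA (169 and 261 in strong cells, 169 and 313 in the others), and in cDC the others only (311 and 504), on few cells.

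Monocytes consisted of a cluster led by Lyz2, Fn1 and F13a1 (63.3%, 67.1% and 58.7% of the class) and one led by Ear2, Ace and Adgre4. The antiviral set was at 842, 988 and 758 CPM in the first and at 203, 225 and 138 CPM in the second, so both were lowest in the knockout library. Strong cells were 10.5%, 11.5% and 9.95% of the first and 2.13%, 2.22% and 1.52% of the second. CD8 T cells led by Nsg2, Sidt1 and Ly6c2 had 280, 314 and 167 CPM with 6 of 216, 22 of 440 and 3 of 296 strong cells. Those led by Gzmk, Pdcd1 and Tox had 393, 432 and 288 CPM with 4.69%, 6.48% and 2.67%, and those led by Dapl1 and Lef1 had 164, 165 and 148 CPM with 3 of 320, 7 of 453 and 4 of 401. The makeup differed: the Gzmk cluster, with the highest level, was 31.3%, 30.1% and 19.3% of CD8 T cells, and the Dapl1 cluster, with the lowest, 36.1%, 31.4% and 41.4%. iNKT cells lay mainly in 2 clusters, one at 335 CPM without HDCA and 437 CPM with it (161 and 255 cells at depth), the other at 426 and 532 CPM (146 and 156 cells). CD4 T cells split. In the cluster led by Foxp3, Ctla4 and Tnfrsf4, genes of regulatory T cells, the antiviral set was at 422, 285 and 183 CPM, with a ratio of 0.645 (0.527 to 0.784) for the knockout pair. In the cluster led by Igfbp4, Lef1 and Tcf7, genes of resting T cells, it was at 207, 175 and 239 CPM, with a ratio of 1.36 (1.15 to 1.61). The first cluster was 31.6%, 47.1% and 28.0% of CD4 T cells, so that the value of the class mixes opposite differences and a different makeup. NK cells of the main cluster had 89.0, 116 and 70.9 CPM. A separate NK cluster held 33.1% of the NK cells of the knockout library and had 83.2 CPM there.

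Of the pathway's other genes, the type I receptor chains differed little in CD8 T and B cells. In B cells Ifnar1 was at 56.7, 60.7 and 57.1 CPM and Ifnar2 at 62.2, 59.2 and 57.6 CPM. Ifnar1 was at 66.1, 73.5 and 69.1 CPM in CD8 T cells, at 69.4, 68.9 and 74.5 in monocytes and at 119, 142 and 158 in pDC. ILC1 had 96.7, 59.2 and 79.1 CPM, and iNKT cells 83.4 CPM without HDCA and 61.5 CPM with it. Ifnar2 was at 95.6, 95.8 and 90.9 CPM in CD8 T cells, 223, 219 and 182 in monocytes, 108, 112 and 88.0 in NK cells and 508, 511 and 480 in pDC. In monocytes and NK cells Ifnar2 was thus lower in the knockout library than in WT HFD+HDCA, with intervals that did not overlap. They were 167 to 197 against 207 to 231 CPM in monocytes and 78.0 to 99.0 against 104 to 122 CPM in NK cells. Socs1, which brakes the signals of type I and type II interferon, was at 9.20 CPM in monocytes of the knockout library and 20.03 in WT HFD+HDCA.

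The ligands themselves were almost unseen. Over 19 genes of type I and type III interferon the kept cells of the libraries held 31, 28 and 10 UMIs, and every Ifna gene was at 0. Ifnb1 had 24, 18 and 3 UMIs in 11, 13 and 2 cells, of which 8, 12 and 1 were monocytes. Ifng, the type II interferon, had 3019, 4636 and 1974 UMIs over all kept cells. In CD8 T cells Ifng was at 33.9 CPM in the knockout library against 90.7 CPM in WT HFD+HDCA (ratio 0.37), with 28.7% of the UMIs of WT HFD+HDCA in 1 cell. Of 20 genes known from the response to interferon gamma, 17 were measured in monocytes, and 17 of 17 lay below 1 in the knockout comparison, 6 of them past 1.5-fold, with a summed ratio of 0.72. Gbp5, a guanylate binding protein, was at 18.4 CPM in the knockout library against 36.4 in WT HFD+HDCA. The same list had 16 of 18 below 1 in CD4 T cells, 13 of 18 in CD8 T cells and 6 of 16 in B cells. With HDCA in WT mice, 12 of 17 lay above 1 in monocytes and 10 of 18 in CD8 T cells. Many genes answer to both interferons, and the share of each signal in the members' differences cannot be told apart here.

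Of 57 further interferon-induced genes that are not members, 53 were measured in monocytes in the knockout comparison, with 38 below and 15 above 1 and 6 lower past 1.5-fold. CD8 T cells had 34 of 48 below 1 and 2 lower past 1.5-fold, CD4 T cells 23 of 46 and 5, and B cells 20 of 46 and 1. Ifi208 was at 5.52 CPM in monocytes of the knockout library against 12.1 in WT HFD+HDCA. Mx2 was at 3.36 and 1.16 CPM in CD8 T cells, from 41 and 10 UMIs. Cxcl10, a chemokine that draws T cells, was at 17.6 and 1.83 CPM in CD4 T cells, from 72 and 5 UMIs. Ube2l6, the enzyme that carries Isg15 to its targets, was at 68.7 and 38.6 CPM in monocytes and at 21.0 and 10.3 CPM in CD4 T cells. Slfn4 was at 3.45, 14.4 and 9.20 CPM in monocytes, and Gbp2 in cDC at 2.06 CPM without HDCA and 62.2 CPM with it, from 2 and 108 UMIs.

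Genes outside the pathway differed between the libraries as well. The stress gene Hspa1b was higher in the knockout library in all 8 classes, for example at 25.5 and 113 CPM in B cells, 54.1 and 153 CPM in monocytes and 16.6 and 41.0 CPM in CD8 T cells. A list of 6 heat shock genes had a summed ratio of 1.26 in B cells, 1.24 in CD4 T cells, 1.22 in monocytes, 1.08 in CD8 T cells and 0.96 in NK cells. The antiviral ratios of all these classes for the knockout pair are given above. With HDCA in WT mice the same list was at 0.76 in CD4 T cells, 0.84 in NK cells, 0.88 in CD8 T and B cells and 1.02 in monocytes. Its part in the members' differences was not tested. T cell markers summed to 96.6, 137 and 59.5 CPM in monocytes, with 24, 25 and 21 of 25 genes seen, and Kupffer cell markers to 477, 278 and 396 CPM, with 7, 8 and 7 of 12 seen. A list of 11 genes of dividing cells summed to 24.9, 67.1 and 24.8 CPM in monocytes, 203, 489 and 355 in CD4 T cells and 347, 267 and 300.2 in CD8 T cells, and to 369 and 552 CPM in iNKT cells of WT HFD and WT HFD+HDCA. In cDC, T cell markers summed to 86.7, 354 and 624 CPM. Plasma cell markers in CD8 T cells summed to 1012, 168 and 146 CPM. Neutrophil markers were at 1320 CPM in CD8 T cells of the knockout library and at 1107 CPM in CD4 T cells of WT HFD+HDCA, almost all in 1 cell each. Without these cells the antiviral ratio of the knockout pair was 0.670 in CD8 T and 0.856 in CD4 T cells. The part of the other markers in the members' differences was not tested.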

How the data were processed

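Deposited counts of unique molecular identifiers per gene and barcode were used from 3 RNA libraries, made with Cell Ranger 8.0.1 per the file headers, and deposited TCR contigs assigned T cells. The builds mm10 and GRCm39 are both named in the submitters' processing notes, so printed coordinates are only those of the RefSeq promoter table (GRCm38.p6). Barcodes with fewer than 200 genes, with 10% or more mitochondrial counts, or called doublets by Scrublet (3.75%, 4.83% and 3.94%) were dropped. Clustering used 2000 variable genes without the 40 members and listed interferon genes, 30 principal components, 20 neighbours and resolution 1 (scanpy 1.11.5, leidenalg 0.10.2, Python 3.11.15). Clusters were named from marker lists and taken without cells that hold a TCR contig. An iNKT cell had a productive alpha contig of TRAV11 or TRAV11D with TRAJ18. CD4 and CD8 T cells had both chains, no such contig, and counts of the matching coreceptor and none of the other.

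The level of a gene in a class is its summed count over all counts of that class in that library. Intervals are at 95% and come from scipy 1.17.1: conditional and exact for a ratio, Poisson for a level, Clopper-Pearson for a share. They cover counting error only, as does the largest share that 0 cells allow (3 counts). No p-value was computed. The ratio interval and the 1.5-fold call were tested on simulated independent counts per class. Counts gathered in single cells were not simulated, and thinning, shares of strong cells and class naming were not tested in this way.

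Members are described, per class and comparison, where both libraries together held at least 50 counts and the ratio passed 1.5, up to the 4 highest and the 4 lowest, beside the 3 of highest level per class. Other pathway genes follow the same limits, up to 2 per class, with receptors and ligands in any case. Outside these limits, and chosen after their values were seen, are the further monocyte genes (Socs1, Gbp5, Ifi208, Ube2l6 and Slfn4 exceed 2), the levels of Ifi204, Slfn1 and Irf7, members given as exceptions or close values, Hspa1b, and the printed promoters. The members and gene lists were chosen with earlier results of these data known. Alternatives were another scaling, thinning, other filters and limits, clustering with the members, single clusters, and leaving out doublet removal or the top cells.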

Additional observations from a re-analysis of the deposited data

How the results depend on the processing

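With 1 library per group, variation between mice is unknown, and nothing here separates the groups from the libraries. The depth limits members under 50 UMIs, and cDC, pDC and ILC1 rest on 47 to 336 cells per library. No paired analysis was possible because each group had 1 RNA library. The antiviral ratios (17, over classes and comparisons) kept their direction except as given here, and median-ratio scaling, a mitochondrial limit of 5% and leaving out the top cell of each library moved none of the 17 outside its interval. Causes of the changes were not tested. The single clusters, and leaving out the top cell or the cells with neutrophil markers, were settings chosen after seeing the data.

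Antiviral ratios that crossed 1 were 1.364 for the knockout pair in CD4 T cells of cluster 5 (led by Igfbp4), 0.9863 for the WT pair in CD8 T cells without doublet removal, and those of the knockout pair in B cells with members allowed in the clustering and without the top 1% of cells, where the count of lower classes becomes 8 of 8. Thinned to 2000 UMIs, the WT ratios were 1.146 (CD8 T), 1.012 (NK), 1.537 (ILC1) and 1.129 (monocyte), and those of the knockout pair 0.9487 (CD4 T), 0.6034 (CD8 T), 0.7416 (monocyte) and 0.5497 (cDC). Within clusters, the WT ratios were 0.8436 and 0.6737 (CD4 T clusters 5 and 8), 1.119 (CD8 T cluster 3) and 1.108 (monocyte cluster 15), and the knockout ratios 0.6446 (CD4 T cluster 8), 0.5311 and 0.8959 (CD8 T clusters 3 and 4), and 0.7673 and 0.6141 (monocyte clusters 10 and 15). As a mean of each cell's CPM the WT ratio was 1.053 in iNKT, 1.123 in CD8 T cells and 1.131 in monocytes. With members allowed in the clustering it was 1.08 in NK cells, and the knockout ratio 0.8995 in B cells. Without doublet removal the WT ratio was 1.126 in monocytes and 1.516 in cDC, and the knockout ratio 0.7556 and 0.5611. Without the top 1% of cells the knockout ratio was 0.8552 in NK and 0.9369 in B cells, and the WT ratio 1.132 in monocytes.

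Counts of members past 1.5-fold moved with the minimum. At 20 UMIs the WT pair gave 2 lower (CD4 T), 2 higher (CD8 T), 4 higher and 2 lower (NK and, alike, ILC1), 2 lower (cDC) and 8 higher (pDC), and the knockout pair 2 higher (CD4 T), 9 lower (NK), 3 higher and 6 lower (ILC1) and 2 higher (B). With 1 UMI in each library as the minimum, the WT pair gave 3 lower (CD4 T), 2 higher and 1 lower (CD8 T), 4 higher and 5 lower (NK), 9 higher and 3 lower (ILC1), 2 lower (B), 4 lower (cDC) and 9 higher (pDC). The knockout pair then gave 3 higher (CD4 T), 1 higher (CD8 T), 1 higher and 11 lower (NK), 7 higher and 9 lower (ILC1), 3 higher (B), 4 higher (cDC) and 3 higher (pDC). Median-ratio scaling gave 1 lower for the WT pair in CD4 T cells. The ratio of shares of strong cells moved to 0.6319 for the knockout pair in CD8 T cells with a limit of 2 genes, and to 2.067 for the WT pair in monocytes with 5 genes, where it crossed 1 at 0.8668 (2 genes), 0.7935 (3000 UMIs) and 0.9393 (no doublet removal). In the other classes the ratio of shares also crossed 1 under at least 1 such setting, except in iNKT and CD8 T cells. The shares themselves move with the limit by construction (19 of 26 at 2 genes, 18 of 26 at 5).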
